A study of Homo sapiens with 12 samples.

Results

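The genes described here are the protein-coding genes whose symbol is ZNF followed by a number from 500 to 899, with at most one suffix letter. They were found by their symbols, with no use of their measured levels: 255 genes out of 19916 protein-coding genes and 65969 identifiers in the count table. Total RNA was sequenced from 12 libraries of embryoid bodies harvested after 10 days, which are floating clusters of differentiating stem cells. The cells were H1 and MEL1, both established human embryonic stem cell lines. A lentivirus brought in a short hairpin RNA under doxycycline control, and puromycin selected for it. The hairpins KD1, KD2 and KD3 target METTL14, a subunit of the enzyme that writes N6-methyladenosine on RNA, and SCR is the control. H1 gave 2 libraries each of SCR, KD1, KD2 and KD3. MEL1 gave 1 SCR library, 2 KD1 libraries and 1 KD2 library. All groups, the controls included, were seeded at 500 cells per microwell and received doxycycline at 2 µg/ml throughout. The labels do not say whether a hairpin line was a single clone or a pool, nor whether replicate libraries came from separate cultures, so the p-values measure the spread between these libraries, which may be technical. Because each line, and each hairpin within a line, was derived apart, hairpin effects and differences among the carrying cells cannot be told apart.

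Most of these genes encode C2H2 zinc finger proteins, in which each finger folds around a zinc ion and tandem fingers read a DNA sequence. Many also carry a KRAB domain, which recruits the corepressor TRIM28 and, through it, the histone methyltransferase SETDB1, and many KRAB zinc finger proteins bind and silence transposable elements. The family grew by gene duplication, and large groups of its genes lie side by side on chromosome 19. Some of its promoters are known to vary in DNA methylation between pluripotent stem cell lines and between tumours. Among the 255 genes, 133 lie on chromosome 19 (GENCODE release 29, GRCh38). In the longest annotated coding sequence of each gene, a pattern search matched a KRAB-like box in 162 genes. The same search found a median of 10 C2H2 fingers per protein, with a maximum of 39 in ZNF729. Both searches are approximate.

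For 210 of the 255 genes, RefSeq promoter windows (GRCh38.p14, 250 bases before to 50 bases after a start site) were at hand. The 250 bases upstream of the start are shown for 4 genes that were on in every H1 library and near zero in every MEL1 library, each with a single listed start, and for ZNF662, which had the opposite pattern. Capitals mark CG dinucleotides, the sites of DNA methylation in mammals. The windows are chr19:56393535-56393784 (minus strand) for ZNF582, chr19:20565782-20566031 (minus strand) for ZNF737, chr19:20661572-20661821 (minus strand) for ZNF626, chr7:64313711-64313960 (plus strand) for ZNF736 and chr3:42905892-42906141 (plus strand) for ZNF662.
ZNF582: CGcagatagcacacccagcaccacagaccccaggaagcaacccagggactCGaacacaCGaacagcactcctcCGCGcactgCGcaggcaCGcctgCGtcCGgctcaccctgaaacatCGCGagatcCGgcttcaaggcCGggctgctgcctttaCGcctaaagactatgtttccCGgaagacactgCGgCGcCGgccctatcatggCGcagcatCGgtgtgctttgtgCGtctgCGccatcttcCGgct
ZNF737: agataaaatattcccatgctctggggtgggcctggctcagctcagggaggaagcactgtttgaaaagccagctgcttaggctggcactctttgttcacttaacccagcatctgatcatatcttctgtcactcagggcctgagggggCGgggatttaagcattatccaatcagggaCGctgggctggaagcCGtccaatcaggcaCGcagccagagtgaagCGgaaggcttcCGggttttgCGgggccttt
ZNF626: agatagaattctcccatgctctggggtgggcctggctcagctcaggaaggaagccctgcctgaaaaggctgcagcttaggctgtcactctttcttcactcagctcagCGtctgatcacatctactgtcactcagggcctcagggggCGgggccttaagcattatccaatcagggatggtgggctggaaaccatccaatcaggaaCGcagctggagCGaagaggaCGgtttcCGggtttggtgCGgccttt
ZNF736: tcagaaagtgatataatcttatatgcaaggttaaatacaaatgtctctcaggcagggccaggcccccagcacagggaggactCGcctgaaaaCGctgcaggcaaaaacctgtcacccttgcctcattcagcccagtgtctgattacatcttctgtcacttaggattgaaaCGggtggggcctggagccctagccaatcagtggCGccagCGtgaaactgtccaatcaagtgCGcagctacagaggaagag
ZNF662: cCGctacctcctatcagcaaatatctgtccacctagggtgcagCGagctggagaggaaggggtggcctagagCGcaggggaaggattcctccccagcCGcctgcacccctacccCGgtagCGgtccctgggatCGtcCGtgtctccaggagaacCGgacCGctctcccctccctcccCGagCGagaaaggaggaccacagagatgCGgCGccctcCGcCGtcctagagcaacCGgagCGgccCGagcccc
The CG content of these promoters was uneven. The ZNF582 window holds 23 CG dinucleotides and the ZNF662 window 19, against 7 each for ZNF737 and ZNF626 and 6 for ZNF736. Over the full windows of 300 bases, averaged where a gene has several listed starts, the median was 22 CG dinucleotides both for the 210 zinc finger genes and for 15301 protein-coding genes. At least 10 were present in 92.4% of the zinc finger promoters and in 76.0% of the protein-coding promoters. ZNF737 and ZNF626 are neighbours on chromosome 19, and their upstream windows carry the same base at 215 of 250 positions (86.0%), with no gaps allowed. The ZNF737, ZNF626 and ZNF736 windows each hold the letters CCAATCA, a form of the CCAAT box, 2 times, and ZNF582 and ZNF662 hold them on neither strand. That motif was picked after the windows had been read. It occurs on either strand in 18.4% of 267 upstream windows of the zinc finger genes and in 7.77% of 21558 windows of protein-coding genes.

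Depth and the targeted gene were examined before the zinc finger genes. The libraries held between 36609412 and 43508085 estimated counts, except the MEL1 SCR library, which held 15963024. METTL14 stood at 29.8 and 43.8 CPM (counts per 1000000 scaled counts) for H1 SCR and at 8.89 to 17.7 CPM for H1 knockdown. In MEL1 it stood at 49.9 CPM in the SCR library and at 5.94 to 8.95 in the knockdown libraries. Every knockdown library was below every SCR library of its line.

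The zinc finger genes were broadly but weakly expressed. Of the 255 genes, 227 had a mean of at least 1 CPM over the 12 libraries, 136 had at least 10 CPM and 7 had at least 100 CPM. A filter on low counts left 238 genes for testing, with a median of their mean levels of 12.1 CPM against 18.8 CPM for all tested protein-coding genes. The 17 genes that did not pass were ZNF541, ZNF560, ZNF676, ZNF679, ZNF683, ZNF705A, ZNF705B, ZNF705D, ZNF705G, ZNF716, ZNF722, ZNF723, ZNF727, ZNF728, ZNF735, ZNF804A and ZNF831. ZNF804A, a gene associated with schizophrenia risk, was at 0.204 CPM or less in every library. Among the 255 genes, 5 had no count in any library. Per kilobase of transcript, the 5 highest genes were ZNF664 at 125 CPM per kilobase, ZNF532 at 120, ZNF521 at 80.8, ZNF561 at 58.9 and ZNF706 at 52.6. ZNF521, a regulator of neural and haematopoietic progenitors, and ZNF532, found with the chromatin reader ZMYND8, belong to the members without a KRAB-like box, as do ZNF664 and ZNF706. Of the tested genes, 7 share identical counts with another identifier in the table, and close copies such as ZNF585A and ZNF585B, ZNF587 and ZNF587B or ZNF780A and ZNF780B can share reads, so the split of counts within such groups is uncertain.

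The H1 libraries carried more zinc finger RNA than the MEL1 libraries. The summed level of the 255 genes was 5079 to 6272 CPM in the 8 H1 libraries and 4031, 4085, 3636 and 4173 CPM in the MEL1 SCR, KD1 replicate 1, KD1 replicate 2 and KD2 libraries, with no overlap. Between 225 and 229 of the genes reached 1 CPM in an H1 library, against 202 to 207 in a MEL1 library. The ZNF genes with other numbers, 254 in all, summed to 5355 to 6581 CPM in H1 and 4524 to 5382 CPM in MEL1, where the ranges overlapped.

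Between the lines, lower levels in MEL1 predominated. At matched hairpins, 132 of the 238 tested genes differed at an adjusted p under 0.05 in edgeR's quasi-likelihood test with Benjamini-Hochberg adjustment over 24898 genes. Of these, 114 were lower in MEL1 and 18 were higher. Among all tested genes, 44.7% differed, 22.9% lower and 21.8% higher, against 47.9% lower and 7.56% higher (55.5% in all) for the zinc finger genes. The median log2 difference, MEL1 minus H1, was -0.37 for the zinc finger genes and -0.05 for all tested genes. The ZNF genes with other numbers gave 105 lower and 29 higher of 249 and a median of -0.28. For 88 of the 238 genes (37.0%) every MEL1 library was below every H1 library, against 13.0% of all tested genes. The reverse held for 14 genes (5.88%), against 12.3% of all tested genes. By domain, 71 of 149 tested genes with a KRAB-like box and 43 of 89 without one were lower in MEL1, and 14 and 4 were higher.

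**Figure D1:**
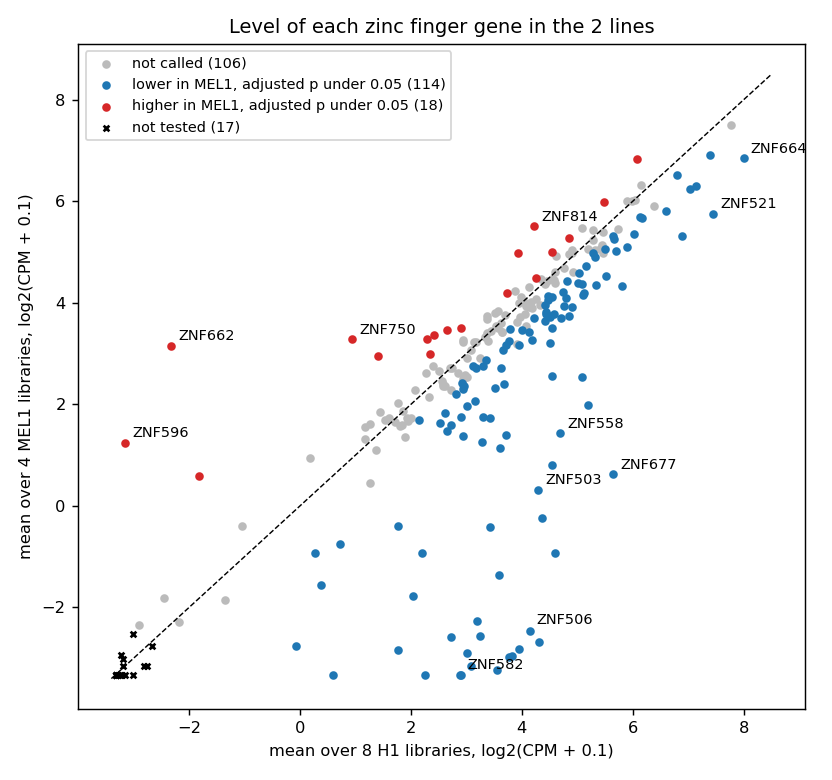
Mean level of each zinc finger gene over the 8 H1 libraries (x axis) and the 4 MEL1 libraries (y axis), both as log2(CPM + 0.1), with colours for the line test. The 114 genes lower in MEL1 lie below the dashed line of equal level, and some of them, such as ZNF582 and ZNF506, lie near the bottom of the y axis at several CPM in H1.

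The 2 lines also differed in markers of cell types at day 10. The summed level of 6 pluripotency genes, POU5F1 and NANOG among them, was 1101 to 1344 CPM in H1 and 2176 to 3802 CPM in MEL1, with 6 of 6 higher in MEL1. LIN28A, at means of 959 CPM in H1 and 1677 CPM in MEL1, made up most of the H1 sum. POU5F1 had means of 35.9 CPM in H1 and 603 CPM in MEL1, and NANOG 4.74 and 59.1 CPM. The 6 neuroectoderm markers, such as PAX6 and SOX1, summed to 753 to 1356 CPM in H1 and 352 to 559 CPM in MEL1, with 6 of 6 lower. PAX6, LHX2 and SIX3 had means of 179, 99.8 and 64.8 CPM in H1 and 1.08, 1.42 and 0.965 CPM in MEL1. SOX1, SOX2 and OTX2 differed less (log2 -1.34, -0.62 and -0.76), and SOX2 made up most of the MEL1 sum. The 4 neuronal markers summed to 202 to 302 CPM in H1 and 62.8 to 103 CPM in MEL1, with 4 of 4 lower and ELAVL4 at 0 in every MEL1 library. Endoderm markers summed to 0.101 to 0.685 CPM in H1, where SOX17, FOXA2, GATA6, AFP and TTR each had a mean under 0.1 CPM, and to 1.13 to 12.6 CPM in MEL1, with 3 of 5 tested higher and SOX17 at a mean under 0.1 CPM. Markers of surface ectoderm and trophoblast summed to 2.31 to 5.07 CPM in H1 and 17.7 to 30.7 CPM in MEL1, with 3 of 3 tested higher, TP63 and KRT5 at means under 0.1 CPM in H1 and KRT5 at 0 in MEL1. Mesoderm markers summed to 66.8 to 161 CPM in H1 and 67.4 to 109 CPM in MEL1, with 2 of 6 higher, TBXT and HAND1. KDR made up most of these sums, at 59.6 to 157 CPM in H1 and 58.0 to 99.0 CPM in MEL1. Neural crest markers summed to 159 to 240 CPM in H1 and 177 to 430 CPM in MEL1, with 2 of 4 higher. The part of these markers in the zinc finger differences was not tested, and in bulk RNA fewer cells of a type and less RNA per cell cannot be told apart.

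A subset of genes was on in one line and near zero in the other in every library, whichever hairpin was carried. With every library of one line at 1 CPM or above and every library of the other under 0.1 CPM, 8 genes were restricted to H1: ZNF506, ZNF582, ZNF583, ZNF626, ZNF682, ZNF732, ZNF736 and ZNF737. They are 3.14% of the 255 genes, against 0.201% of protein-coding genes. The rule was met in the opposite direction by ZNF596 (0.392%, against 0.0552% of protein-coding genes). Among the ZNF genes with other numbers, 6 were restricted to H1 and 2 to MEL1. With the upper limit in the low line raised to 0.5 CPM, 17 genes were restricted to H1 (6.67%, against 0.477% of protein-coding genes) and 3 to MEL1 (1.18%, against 0.286%). Of the 17 genes, 15 carry a KRAB-like box (88.2%, against 63.5% of the 255 genes) and 12 lie on chromosome 19 (70.6%, against 52.2%). These counts are descriptions of the 12 libraries, with no test.

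All 8 genes restricted to H1 are KRAB zinc finger genes by the pattern search. ZNF582, whose promoter methylation is used as a marker in cervical screening, had no count in any of the 4 MEL1 libraries. In H1 it ranged from 6.46 to 8.26 CPM with a median of 7.25. Against a floor of 3 counts over the MEL1 libraries it was at least 324-fold higher in H1 (adjusted p = 9.76e-09). Its neighbour ZNF583, which starts 4420 bases away in the opposite orientation, also had no count in MEL1 and ranged from 2.88 to 6.65 CPM in H1 with a median of 4.68. It was at least 207-fold higher in H1 (adjusted p = 1.14e-07). ZNF732, near the end of the short arm of chromosome 4, was the remaining one of the 8 with no count in MEL1, and ranged from 5.72 to 9.50 CPM in H1 with a median of 6.99. It was at least 329-fold higher in H1 (adjusted p = 3.35e-08). The rule that picked these 3 genes leaves no room for overlap between the H1 and MEL1 libraries.

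The other 5 genes left a few counts in MEL1. ZNF682 had a single count among the 4 MEL1 libraries and ranged from 9.16 to 15 CPM in H1 with a median of 11.5, a ratio of 1551 with an exact 95% interval of 278 to 61271. ZNF626 stood at 0.0512 CPM in MEL1 KD1 replicate 1 and at 0 in the other MEL1 libraries, and at 5.36 to 11.6 CPM in H1, a ratio of 558 (154 to 4610). ZNF736 stood at 0.0512 and 0.0574 CPM in the MEL1 KD1 libraries and at 0 in the MEL1 SCR and KD2 libraries, and at 9.38 to 17.1 CPM in H1, a ratio of 454 (177 to 1668). The intervals cover counting error only and are not limits for the lines. ZNF737 reached 0.0767, 0.0574 and 0.0900 CPM in the MEL1 KD1 and KD2 libraries and 14.2 to 26.3 CPM in H1, a ratio of 294 (155 to 643). ZNF506 reached 0.0681, 0.0767, 0.0861 and 0.0900 CPM in MEL1 and 11.5 to 21.5 CPM in H1, a ratio of 213 (119 to 427). ZNF737 and ZNF506 lay just inside the limit of 0.1 CPM. Just outside it lay ZNF835 with a highest MEL1 level of 0.102 CPM, and ZNF559, ZNF595 and ZNF841 with 0.115 CPM each. All 5 genes were lower in MEL1 by the test, with adjusted p-values from 9.67e-11 for ZNF506 to 1.30e-08 for ZNF626.

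**Figure D2:**
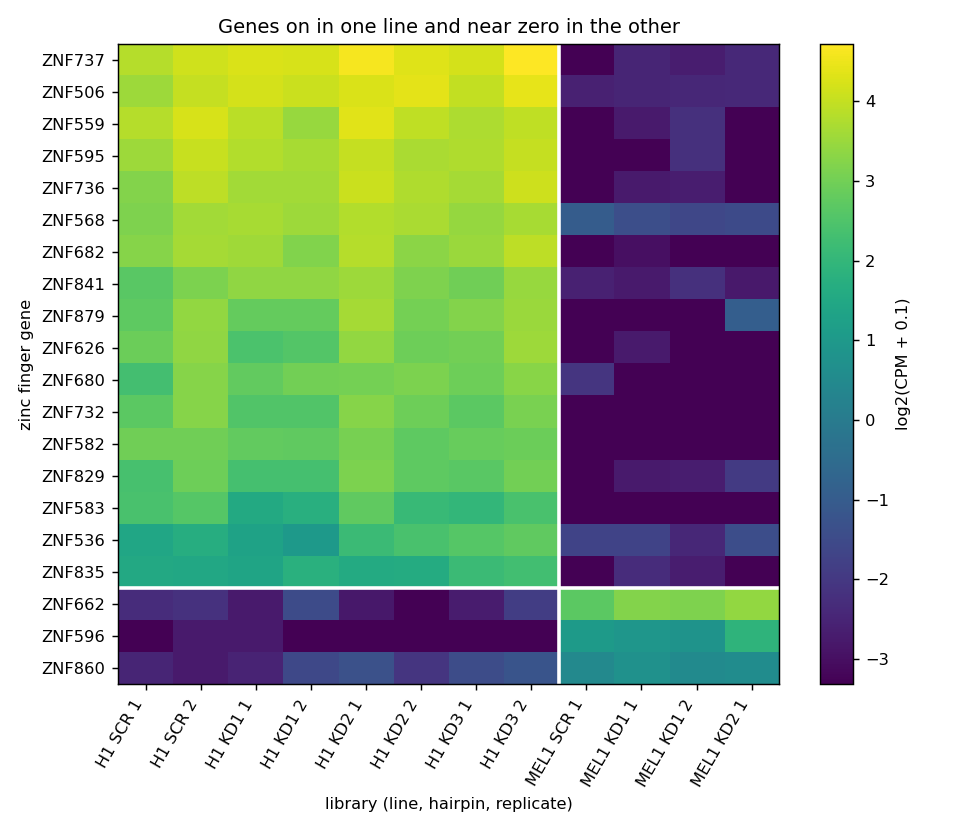
Level of the 17 zinc finger genes restricted to H1 (upper block) and the 3 restricted to MEL1 (lower block) under the 0.5 CPM limit, in each of the 12 libraries, as log2(CPM + 0.1). The white lines separate the 8 H1 from the 4 MEL1 libraries; ZNF582, ZNF583 and ZNF732 are at the lowest value in all 4 MEL1 libraries.

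The wider group, picked by the limit of 0.5 CPM, had more residual RNA in the low line. ZNF595, separated from ZNF732 on chromosome 4 by 1 gene of the set, ZNF718, was at 0 in 3 MEL1 libraries and at 0.115 CPM in KD1 replicate 2, against 11.5 to 16.4 CPM in H1. Its log2 difference was -8.70 ± 0.46 (SE, adjusted p = 7.36e-09). ZNF680, close to ZNF736 on chromosome 7, was at 0.136 CPM in MEL1 SCR and at 0 in the other MEL1 libraries, against 4.92 to 9.69 CPM in H1. ZNF568, whose mouse counterpart represses a placental Igf2 transcript, stood at 0.409, 0.281, 0.230 and 0.247 CPM in MEL1 and at 8.97 to 13.9 CPM in H1. The ratio of H1 to MEL1 was 44.3 (32.0 to 63.4) and the log2 difference -5.44 ± 0.23 (adjusted p = 7.65e-10). ZNF879 was at 0 in 3 MEL1 libraries but at 0.427 CPM in the KD2 library, against 6.58 to 12.3 CPM in H1. ZNF502, one of the genes whose counts are shared with another identifier, had no count in MEL1 but only 0.797 to 2.13 CPM in H1, and therefore missed the 1 CPM rule.

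Fewer genes were on in MEL1 and near zero in H1, and none of the 3 lies on chromosome 19. ZNF596 on chromosome 8 stood at 1.98, 1.76, 1.64 and 3.69 CPM in the MEL1 SCR, KD1 and KD2 libraries and at 0 in 6 of the 8 H1 libraries, with 0.0506 CPM as the highest. The ratio of MEL1 to H1 was 198 (76.6 to 731) and the adjusted p was 3.55e-06. ZNF662 on chromosome 3 stood at 6.34, 9.33, 8.81 and 10.7 CPM in MEL1 and at 0 to 0.258 CPM in H1, a ratio of 93.4 (66.2 to 136). Its log2 difference was 6.45 ± 0.48 (adjusted p = 2.42e-07). ZNF860 stood at 1.29 to 1.59 CPM in MEL1 and at 0.0483 to 0.322 CPM in H1, a ratio of 7.73 (5.77 to 10.5).

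Among the genes above 1 CPM on average that were higher in MEL1, ZNF750 had the largest log2 difference after ZNF662. ZNF750, a regulator of epidermal differentiation, had a log2 difference of 2.93 ± 0.24 (adjusted p = 4.29e-07), although the ranges of the lines overlapped (3.41 to 21.9 CPM in MEL1, 0.405 to 6.01 CPM in H1). The other 6 genes with the largest differences are KRAB zinc finger genes on chromosome 19 with at most a few-fold change. ZNF600 stood at 5.72 to 9.45 CPM in MEL1 and 1.99 to 3.72 CPM in H1 (log2 1.56 ± 0.21). ZNF814 stood at 29.4 to 57.1 CPM in MEL1 and 16.5 to 20.2 CPM in H1 (log2 1.21 ± 0.15). ZNF587B differed by 1.07 ± 0.16, ZNF552 by 0.99 ± 0.14, ZNF836 by 0.98 ± 0.17 and ZNF578 by 0.86 ± 0.19. For all 6, every MEL1 library was above every H1 library, and the adjusted p-values ran from 1.81e-05 to 0.00218.

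Several of the genes near zero in MEL1 were neighbours. Genes of the set were joined into a run where less than 500000 bases separated them. On chromosome 19 between 19785839 and 21379302 (GRCh38) lie 7 of the genes, of which 6 were lower in MEL1. The leading 4, ZNF506, ZNF682, ZNF737 and ZNF626, are all restricted to H1, while ZNF714 and ZNF738 had log2 differences of -0.53 and -0.64 and ZNF708 did not pass (log2 -0.54, adjusted p = 0.0603). Between 55476332 and 56671783 on the same chromosome, 9 of 12 genes were lower, and 3 of the last 4 in order, ZNF582, ZNF583 and ZNF835, were near zero in MEL1. The other, ZNF667, stood at 0.0574 to 0.750 CPM in MEL1 and at 21.4 to 28.8 CPM in H1. Between 36182060 and 37817300, 11 of 20 genes were lower, and ZNF829, ZNF568, ZNF585A and ZNF585B stand side by side. ZNF585A stood at 0.373 to 1.07 CPM in MEL1 against 13.7 to 22.2 CPM in H1, and ZNF585B at 0.450 to 0.803 CPM against 9.07 to 12.1 CPM. On chromosome 4, all 4 genes between 53285 and 499156 were lower, with ZNF718 at -2.33 and ZNF721 at -0.54 beside ZNF595 and ZNF732. On chromosome 7 between 63998874 and 64563106, ZNF736 and ZNF680 were both near zero in MEL1, and the other 4 genes of that run were too low to test in either line. The genes named here outside the naming rule were chosen after their values were seen.

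Other runs were mixed. The longest, 27 genes on chromosome 19 between 51804816 and 53496255, held 9 genes lower, 4 higher and 14 not called. In it ZNF841, near zero in MEL1 (0.0450 to 0.115 CPM against 6.23 to 11.5 CPM in H1), is separated by 1 gene of the set, ZNF616, from ZNF836, which was higher in MEL1. ZNF880 stood at 0.886 to 2.83 CPM in MEL1 against 21.1 to 25.6 CPM in H1 in the same run, and ZNF528 at 2.12 to 9.0 CPM against 26.8 to 44.4 CPM. The run at the end of the long arm, 22 genes between 57240685 and 58418327, held 9 lower and 6 higher genes, among them ZNF552, ZNF587B and ZNF814 in a row. On chromosome 16, 8 of 11 genes between 30407297 and 31443160 were lower and none was higher. By chromosome, 64 of the 133 genes on chromosome 19 were lower and 11 higher, against 10 and 0 of 16 on chromosome 16.

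**Figure D3:**
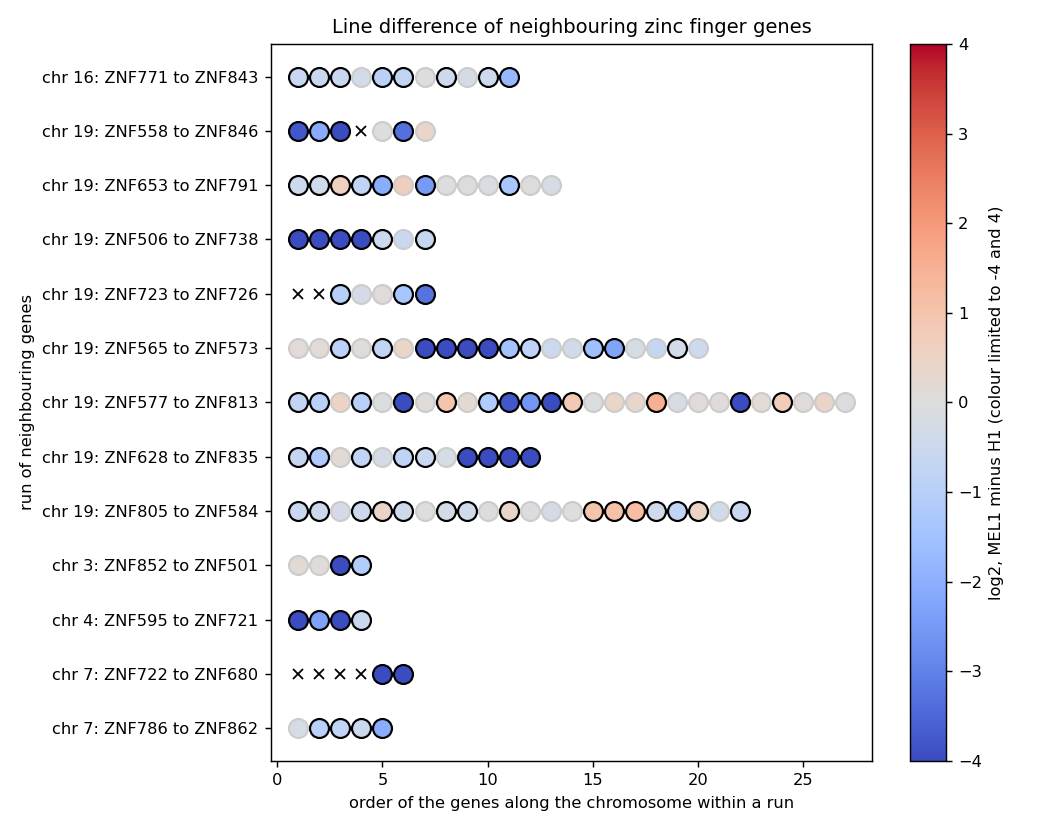
Runs of at least 4 neighbouring zinc finger genes, each circle 1 gene in its order along the chromosome, coloured by its log2 line difference (MEL1 minus H1). Dark outlines mark an adjusted p under 0.05 and crosses mark genes not tested. Deep blue circles stand next to each other at ZNF506 to ZNF626, at ZNF582 to ZNF835 and at ZNF829 to ZNF585B.

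A list of 21 of the genes was drawn up for functions known outside these data. Of the 20 that were tested, 8 were lower and 2 higher in MEL1 and 10 did not pass (50.0% called, against 44.7% of all tested genes). Of the lower genes, ZNF534, ZNF558 and ZNF568 carry a KRAB-like box, and ZNF503, ZNF521, ZNF536, ZNF703 and ZNF711 do not. The higher genes were ZNF750, given above, and the KRAB gene ZNF589 (log2 0.74). ZNF503 and ZNF703 belong to the NET family of transcriptional corepressors, and ZNF503 acts in the developing eye and striatum. ZNF503 stood at 0.750, 0.818, 0.861 and 2.16 CPM in MEL1 and at 10.2 to 27.7 CPM in H1 (log2 -4.22 ± 0.23, adjusted p = 9.91e-09). ZNF703 stood at 2.45, 2.15, 2.01 and 6.43 CPM in MEL1 and at 4.13 to 15.5 CPM in H1 (log2 -1.73 ± 0.27), so that the ranges overlapped. ZNF536, a repressor in neuronal differentiation, was at 0.0861 to 0.270 CPM in MEL1 and at 1.92 to 6.64 CPM in H1 (log2 -3.94 ± 0.28). ZNF521 stood at 49.7, 45.8, 36.7 and 83.4 CPM in MEL1 and at 149 to 211 CPM in H1, with a median of 172 (log2 -1.62 ± 0.14). Between the lines ZNF503, ZNF521, ZNF536 and ZNF703 were lower where the neuroectoderm and neuronal markers were lower. Within MEL1 the KD2 library had the highest level of each of these 4 genes and the lowest neuroectoderm sum (352 CPM against 414 to 559). For ZNF536 this order is near the floor, at 0.270 CPM against 0.0861 to 0.205 CPM, on 26 counts over the 4 MEL1 libraries. SOX2 made up most of the neuroectoderm sum, at 233 CPM in KD2 against 323 to 428 CPM. PAX6 (2.92 CPM against 0.204 to 0.767) and SOX1 (8.34 CPM against 4.77 to 7.80) were highest in the KD2 library. In OTX2, LHX2 and SIX3 the KD2 library lay between the other MEL1 libraries. The part of cell composition in the line differences was not tested. ZNF711, a cause of X-linked intellectual disability, was lower in MEL1 (log2 -0.54 ± 0.21) with an adjusted p of 0.0481, and that call was lost in 10 of 20 alternatives. ZNF534, a KRAB gene linked to the retroviral element HERVH, stood at 0 to 0.136 CPM in MEL1 and at 0.435 to 1.26 CPM in H1 (log2 -4.64 ± 0.76, adjusted p = 0.000222).

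The other 10 tested genes of that list did not pass the line test. ZNF592 and ZNF687, which occur with ZMYND8 in a chromatin complex, had log2 differences of 0.06 ± 0.09 and -0.03 ± 0.11, and ZNF532 had -0.18 ± 0.11. ZNF593 and ZNF622 act in ribosome assembly and ZNF598 marks stalled ribosomes with ubiquitin. Their log2 differences were 0.14 ± 0.17, 0.29 ± 0.13 and -0.19 ± 0.13. ZNF638, which takes part in silencing retroviral DNA, gave -0.29 ± 0.13, and ZNF644, a partner of the histone methyltransferases EHMT1 and EHMT2, gave -0.34 ± 0.15. ZNF597, an imprinted gene, and ZNF808, a gene required for pancreas development, gave 0.06 and -0.06. Of genes named above for their level, ZNF664 stood at 204 to 319 CPM in H1 and 82.6 to 151 CPM in MEL1 (log2 -1.02 ± 0.10), while ZNF561 and ZNF706 gave -0.01 and -0.18 and did not pass.

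The cofactors of KRAB repression were on in both lines. Of 28 genes for KRAB corepressors and heterochromatin proteins, 27 were tested, and 7 were higher and 8 lower in MEL1. That is 55.6% called, against 44.7% of all tested genes (21.8% higher, 22.9% lower). TRIM28 had a mean of 612 CPM in H1 and 630 CPM in MEL1 (log2 -0.08 ± 0.11, adjusted p = 0.565), and SETDB1 91.7 and 76.1 CPM (log2 -0.29 ± 0.09). The DNA methyltransferase gene DNMT3B was higher in MEL1, at 448 to 1304 CPM against 191 to 285 CPM in H1 (log2 2.03 ± 0.23, adjusted p = 1.90e-05). Its lowest MEL1 level was in the single KD2 library, which also had the lowest pluripotency marker sum in that line. Whether those markers bear on the DNMT3B level was not tested. Also higher were CBX1, CBX3, DAXX, EHMT2, DNMT1 and MORC2, with log2 differences from 0.28 to 0.47. Of these, the MORC2 call was lost in 6 of 20 alternatives and the DNMT1 call in 4. EHMT1 was lower (log2 -1.08 ± 0.10, adjusted p = 9.23e-07), as were CBX5 (-0.80 ± 0.11), ATRX, TASOR, ZNF445, DNMT3A, SETDB1 and ZNF274. The ZNF274 call held in 5 of 20 alternatives, and the TASOR, ATRX and DNMT3A calls were lost in 4, 3 and 2. The remaining cofactor, ZFP57, was under 0.1 CPM in every H1 library and was not tested. In the H1 knockdown average 3 of 27 cofactors were lower, SUV39H2 (log2 -0.49), UHRF1 (-0.61) and DNMT3B (-0.38), which is 11.1% against 4.93% of all tested genes lower. These calls held in 10, 10 and 6 of 18 alternatives, and no cofactor was called over both lines.

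No change with METTL14 knockdown over both lines passed the test for these genes. Over both lines, 9 knockdown libraries were set against 3 SCR libraries with the line as a covariate. None of the 238 genes passed at an adjusted p under 0.05 in edgeR, against 0.213% of all tested genes (0.0562% higher, 0.157% lower). At an unadjusted p under 0.05 there were 18 genes (7.56%, against 15.7% of all tested genes), and the lowest adjusted p was 0.126. DESeq2 called 6 genes with the same model, and edgeR called 16 when each of the 7 groups had its own mean. The median log2 change was 0.07 for the zinc finger genes and 0.05 for all tested genes.

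In H1, where each group had 2 libraries, 5 genes were higher and none was lower in the average of the 3 hairpins against SCR. They are 2.10% of the tested zinc finger genes, against 7.16% of all tested genes (2.23% higher, 4.93% lower). ZNF589, a KRAB gene of haematopoietic progenitors, stood at 55.2 and 51.9 CPM in SCR and between 69.3 and 78.4 CPM in the 6 knockdown libraries (log2 0.43 ± 0.09, adjusted p = 0.0196). ZNF514 stood at 30.0 and 29.8 CPM in SCR and between 36.6 and 50.1 CPM in knockdown (log2 0.55 ± 0.11, adjusted p = 0.0201). ZNF516, a regulator of brown fat genes, stood at 99.6 and 81.8 CPM in SCR and between 117 and 139 CPM in knockdown (log2 0.49 ± 0.11, adjusted p = 0.0273). ZNF652, a transcriptional repressor, stood at 19.7 and 23.8 CPM in SCR and 25.4 to 41.8 CPM in knockdown (log2 0.56 ± 0.14, adjusted p = 0.0351). ZNF692 stood at 27.9 and 23.9 CPM in SCR and 32.3 to 36.7 CPM in knockdown (log2 0.42 ± 0.11, adjusted p = 0.0487). In all 5 genes every H1 knockdown library was above both SCR libraries. The share of all tested genes with that separation was not counted. The ZNF genes with other numbers gave 7 higher and none lower of 249. None of the 5 calls held in all 18 alternatives. ZNF514, ZNF589, ZNF652 and ZNF692 lost their calls when either H1 SCR library was left out, and ZNF516 without SCR replicate 2. Over the alternatives the log2 changes of the 5 genes stayed between 0.31 and 0.71. After removal of a GC and length trend, 24 genes were called (18 higher, 6 lower).

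Each hairpin was also compared alone with the same 2 H1 SCR libraries, so the 3 comparisons are not independent. KD1 gave 5 higher genes and no lower gene, 2.10% against 11.1% of all tested genes (4.25% higher, 6.83% lower): ZNF514 (log2 0.68 ± 0.14), ZNF589 (0.50 ± 0.11), ZNF516 (0.59 ± 0.13), ZNF692 (0.48 ± 0.14) and ZNF846 (0.81 ± 0.23). KD1 values for these genes had adjusted p-values from 0.0130 to 0.0467. KD2 gave 3 higher genes, 1.26% against 1.54% (0.691% higher, 0.851% lower): ZNF750 (log2 2.70 ± 0.26, adjusted p = 0.00143), ZNF503 (1.04 ± 0.21, adjusted p = 0.0414) and ZNF800 (1.40 ± 0.30, adjusted p = 0.0462). KD3 gave ZNF652 alone (0.83 ± 0.16, adjusted p = 0.0258), 0.420% against 2.98% (1.19% higher, 1.79% lower). In the 3 sets of values, the KD1, KD2 and KD3 log2 changes were above 0 for 105, 160 and 171 of the 238 genes. Among all tested genes the same counts were 12194, 12812 and 12824 of them. The number of KD1 calls fell to 0 without H1 SCR replicate 2 or either KD1 library, and was 9 without H1 SCR replicate 1. The KD2 count fell to 1 without H1 SCR replicate 2 or any one of the KD1 or KD2 libraries. The KD3 count fell to 0 without either SCR library or KD3 replicate 2, and was 2 without KD3 replicate 1 or either MEL1 KD1 library, which lend only their spread.

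ZNF750 had the lowest adjusted p of these genes in the comparison of hairpins. In H1 it stood at 0.794 and 0.798 CPM in SCR, 0.405 and 0.422 in KD1, 6.01 and 4.38 in KD2 and 0.967 and 0.768 in KD3. In MEL1 it stood at 9.0 CPM in SCR, 4.12 and 3.41 in KD1 and 21.9 in KD2. In both lines the KD2 libraries were highest and the KD1 libraries lowest, with no overlap within a line between SCR, KD1 and KD2. The test of unequal levels among the H1 hairpins, which does not use SCR, gave an adjusted p of 0.000265 for ZNF750, which was 1 of 3 genes called (1.26%, against 3.54% of all tested genes). The markers of surface ectoderm and trophoblast summed to 4.15 and 2.73 CPM in H1 SCR, 3.29 and 3.23 in KD1, 5.07 and 4.89 in KD2 and 4.19 and 2.31 in KD3. In MEL1 the sum was highest in SCR, at 30.7 CPM, with 19.3 and 17.7 in KD1 and 21.3 in KD2. The part of these markers in the ZNF750 level was not tested.

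The other genes called between H1 hairpins were ZNF536 and ZNF800. ZNF800, a repressor in enteroendocrine cells, stood at 15.6 and 12.8 CPM in H1 KD2 and between 4.43 and 7.51 CPM in the other 6 H1 libraries (adjusted p = 0.0457). In MEL1 its KD2 library was at 5.06 CPM and the others at 2.47 to 4.40 CPM. ZNF536 stood at 2.61 and 3.14 CPM in H1 SCR, 2.40 and 1.92 in KD1, 4.37 and 5.17 in KD2 and 5.96 and 6.64 in KD3 (adjusted p = 0.0351). ZNF503 was highest in H1 KD2, at 27.0 and 27.7 CPM, against 16.3 and 10.2 in SCR, 19.1 and 24.7 in KD1 and 14.3 and 15.9 in KD3, and did not pass the test between hairpins (adjusted p = 0.0981). ZNF703, its relative, stood at 8.56 and 4.13 CPM in H1 SCR, 11.6 and 10.6 in KD1, 12.1 and 15.5 in KD2 and 6.80 and 8.80 in KD3 and did not pass either (adjusted p = 0.257). The neuroectoderm markers summed to 861 and 753 CPM in H1 SCR, 1081 to 1088 in KD1, 1086 and 1264 in KD2 and 1118 and 1356 in KD3, and 5 of 6 were higher in the H1 knockdown average. The exception, SOX1, stood at 23.5 and 23.7 CPM in SCR, 11.9 and 17.2 in KD1, 24.4 and 14.3 in KD2 and 33.0 and 39.7 in KD3. SOX1 passed the test between hairpins (adjusted p = 0.0294), and PAX6, SOX2, OTX2, LHX2 and SIX3 did not. The part of these markers in the levels of ZNF503, ZNF536 and ZNF703 was not tested. Without any one of the 6 H1 knockdown libraries, 1 gene was called between hairpins.

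**Figure D4:**
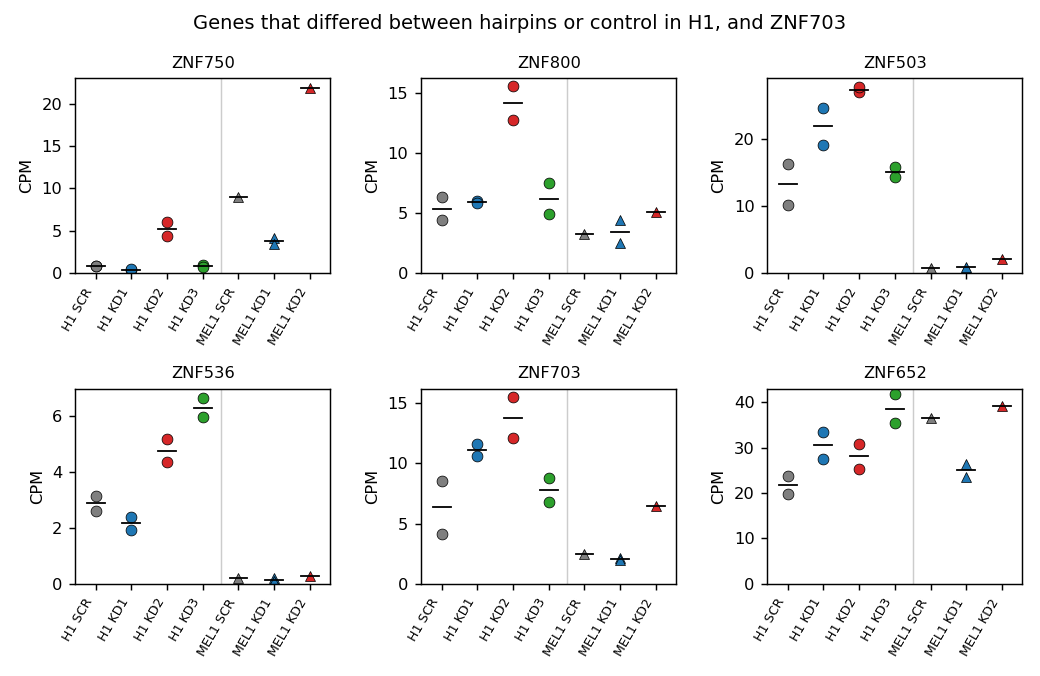
CPM of 6 zinc finger genes in each library, by line and hairpin (circles H1, triangles MEL1, bars the group mean, linear axes from 0). The KD2 libraries are highest for ZNF750 in both lines, at 4.38 to 6.01 CPM in H1 and 21.9 CPM in MEL1, and for ZNF800 at 12.8 and 15.6 CPM in H1.

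The effect of knockdown differed between the lines for 6 genes. The mean KD1 and KD2 effect in MEL1 was set against that in H1, and 2.52% of the zinc finger genes passed against 0.598% of all tested genes, with 3 genes in each direction (1.26%, against 0.454% of all tested genes higher and 0.145% lower). An unadjusted p under 0.05 in the same edgeR test was reached by 36 zinc finger genes (15.1%, against 17.2% of all tested genes). All 6 genes carry a KRAB-like box and 4 lie on chromosome 19, against 62.6% and 53.8% of the tested zinc finger genes. Of the ZNF genes with other numbers, 1 of 249 passed. MEL1 SCR and MEL1 KD2 have 1 library each, which are assumed to vary like the other groups, and MEL1 SCR is the shallowest library of the series. Without either of them the difference could not be fitted.

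ZNF558 is a KRAB gene that controls mitochondrial turnover in human neural progenitors. In MEL1 it stood at 8.04 CPM in SCR, 0.435 and 0.115 in KD1 and 1.82 in KD2. In H1 it stood at 20.1 and 21.3 CPM in SCR, 27.6 and 25.3 in KD1, 26.8 and 27.8 in KD2 and 25.8 and 30.5 in KD3. The MEL1 knockdown effect minus that in H1 was -3.85 ± 0.36 on the log2 scale (adjusted p = 0.00518), and every MEL1 library was below every H1 library. ZNF709 went the other way. In MEL1 it stood at 0.204 CPM in SCR, 2.81 and 2.44 in KD1 and 5.31 in KD2, the last within the H1 range of 4.94 to 6.75 CPM. The difference of the effects was 4.03 ± 0.52 (adjusted p = 0.0133). ZNF677 stood at 0.136 CPM in MEL1 SCR, 1.10 and 0.918 in KD1 and 3.62 in KD2, against 40.1 to 56.5 CPM in H1, with a difference of 3.43 ± 0.51 (adjusted p = 0.0228). At the depth of the MEL1 SCR library 3 counts correspond to 0.204 CPM, so ZNF709 and ZNF677 rested there on 3 counts or fewer, and the size of their fitted differences depends on those counts.

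The differences of the other 3 genes were smaller. ZNF562 stood at 7.22 CPM in MEL1 SCR, 2.58 and 2.12 in KD1 and 3.62 in KD2, against 32.4 to 40.9 CPM in H1, with a difference of -1.34 ± 0.25 (adjusted p = 0.0481). ZNF589, higher with knockdown in H1, stood at 131 CPM in MEL1 SCR, 124 and 112 in KD1 and 86.1 in KD2, with a difference of -0.81 ± 0.15 (adjusted p = 0.0483). ZNF747, named here because it completes the count of 6, stood at 5.52 CPM in MEL1 SCR, 11.4 and 12.8 in KD1 and 13.9 in KD2, against 13.5 to 17.4 CPM in H1, with a difference of 1.31 ± 0.25 (adjusted p = 0.0483). ZNF558 and ZNF709 passed in all 16 alternatives that could be fitted, and ZNF677 in 15, with an adjusted p of 0.0511 without H1 KD1 replicate 1. ZNF562 and ZNF589 passed in 7 and ZNF747 in 3. The count fell to between 2 and 3 without MEL1 KD1 replicate 2 or without any one of the 8 H1 libraries. The scaling of the libraries moved the median difference of all tested genes from 0.11 to 0.01 on the log2 scale with upper-quartile scaling, and the signs of these 6 genes were the same under each scaling.

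**Figure D5:**
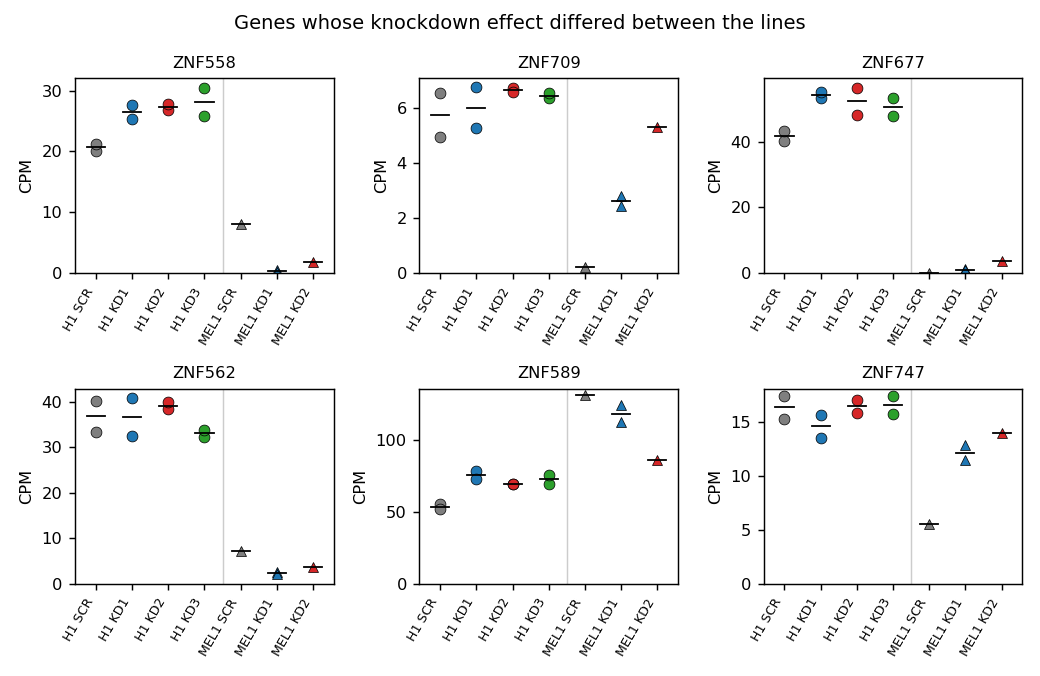
CPM of the 6 genes whose knockdown effect differed between the lines, in each library, by line and hairpin (circles H1, triangles MEL1, bars the group mean, linear axes from 0). The single MEL1 SCR library is above the MEL1 knockdown libraries for ZNF558 (8.04 against at most 1.82 CPM) and below them for ZNF709 and ZNF677.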

How the data were processed

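Total RNA was measured in 12 embryoid body libraries by paired-end sequencing of stranded libraries, per the labels. The deposited values are estimated counts per gene. The submitters' processing notes name fastp and kallisto, without versions, and the genome build and annotation are not given in the sources used here. Values that are not whole, 14.8% to 20.8% per library, were rounded. All 12 columns match a listed library by its title, and the hairpin groups came from the treatment labels. Symbols were matched for 59243 of 65969 identifiers. Gene types, positions, transcript length and GC content came from GENCODE release 29.

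Genes were kept with edgeR's filterByExpr over the 7 groups (24898 genes), scaled by TMM and fitted with edgeR 4.0.16 (robust quasi-likelihood, R 4.3.3). The line difference used hairpin and line as terms, the knockdown over both lines used line and knockdown, and the other comparisons used the 7 group means. Adjusted p-values are Benjamini-Hochberg over all tested genes, called under 0.05. Standard errors are the log2 change divided by the square root of F. Alternatives were other scalings, no filter, DESeq2 1.42.0, removal of a GC and length trend, thinning to the smallest library, other models and each library left out. The scripts were tested on simulated data. CPM values are per 1000000 scaled counts. Intervals are exact at 95% and cover counting error only.

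Named genes are the line-restricted ones, the 8 with the largest called line difference in each direction at a mean of at least 1 CPM, those called for knockdown or between hairpins (at most 5 per direction or test), the 5 highest per kilobase, 21 with known functions, and called cofactors. The members, lists and tests were chosen with earlier results of these data known. KRAB-like boxes and fingers were matched by patterns in the longest coding sequence. A gene annotated as protein-coding in GENCODE was kept whatever RefSeq calls it.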

Additional observations from a re-analysis of the deposited data

Results flagged for a closer look

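In 3 genes a single MEL1 library stood apart from the other 3 by more than Dixon's 95% limit for 4 samples (0.829), and in each it was the MEL1 KD2 library, the only one with that hairpin. ZNF503 stood at 2.16 CPM there and at 0.750 to 0.861 CPM in the others. ZNF596 stood at 3.69 CPM against 1.64 to 1.98 CPM. ZNF703 stood at 6.43 CPM against 2.01 to 2.45 CPM. Over 83 such gene and line groups, 3 exceeded the limit, and chance gives about 1 in 20. In that library the neural crest markers summed to 430 CPM, against 177 to 219 CPM in the other MEL1 libraries, and the pluripotency markers to 2176 CPM, against 3164 to 3802 CPM, and their part was not tested.

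For 6 genes the test of the difference itself found unequal knockdown effects in the lines. The MEL1 effect minus the H1 effect, in log2 units, was -3.85 for ZNF558, 4.03 for ZNF709, 3.43 for ZNF677, -1.34 for ZNF562, -0.81 for ZNF589 and 1.31 for ZNF747. Each rests on the single MEL1 SCR library.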

How the results depend on the processing

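The line difference called 132 genes, between 113 and 138 under the 8 other settings and 119 to 135 with 1 library left out. Removing the GC and length trend gave 138 (31 higher, 107 lower), of which 116 were among the 132. With the KD1 libraries only, 113 were called (22 higher, 91 lower), 105 of them among the 132. All 42 zinc finger line results examined singly kept their direction, and each but ZNF711 passed in all 20 alternatives. Those 42 are named genes, many of them picked for a large line difference, and do not stand for all 132 calls. The model of the 7 group means called 16 genes for knockdown over both lines (12 higher, 4 lower) and DESeq2 called 6 (5 higher, 1 lower), against 0; leaving out a library gave 0 to 0. Without the filter on low counts 16, 16, 10 and 16 genes were called for the H1 average, KD1, KD2 and KD3, and 16 between hairpins. DESeq2 called 13, 14, 7 and 11 genes, 9 between hairpins and 10 for the difference between lines. Removing the GC and length trend gave 24 (18 higher, 6 lower), 29 (20 higher, 9 lower), 6 (5 higher, 1 lower) and 16 (13 higher, 3 lower), 7 between hairpins, and 8 (3 higher, 5 lower) for the difference between lines. Upper-quartile scaling gave 8 for KD1. With 1 library left out, the counts were 0 to 6 for the H1 average, 0 to 9 for KD1, 1 to 3 for KD2, 0 to 2 for KD3, 1 to 4 between hairpins and 2 to 5 for the difference between lines, which could not be fitted without MEL1 SCR or MEL1 KD2. The 9 line-restricted genes became 20 with limits of 1 and 0.5 CPM, 8 after thinning and 9 to 12 with 1 library left out. No single result reversed. The cause of these shifts was not tested. No paired analysis was possible because the labels carry no replicate numbers. Under about 0.204 CPM the MEL1 SCR library holds 3 counts or fewer.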
